A study of Mus musculus with 5 samples.

Results

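The nuclei described here are inhibitory nuclei of the mouse central amygdala (CeA) that carried Dlk1 transcripts and lacked or were low in the transcripts that mark the other inhibitory types of this tissue. A unique molecular identifier (UMI) counts 1 captured RNA molecule, and p10k denotes the UMIs of a gene per 10000 UMIs of its nucleus. Nuclei with 500 to 8000 detected genes and mitochondrial UMIs under 0.8% were kept, and those with at least 1 UMI of Gad1 or Gad2, which make the transmitter GABA, were called inhibitory. A nucleus was a member when Dlk1 was at least 1 p10k, Tac1, Sst and Vdr were at 0 UMIs, Rai14 was under 1.5, Prkcd under 3, Rarb under 5, Foxp2 under 8, and Pde1c and Il1rapl2 were each under 15 p10k. This gave 231 nuclei, called Dlk1 nuclei below, of 6020 inhibitory and 7161 kept nuclei.

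The nuclei come from 5 single-nucleus libraries of mice labelled C57BL6, and 2 mice, 1 of each sex, were pooled in each library. The study's methods give the substrain C57BL/6NRj for its wild-type mice and a C57BL/6N background for its transgenic mice. Fed replicates 1 and 2 came from untreated mice of 8 weeks, and fed replicate 3 came from mice of 12 weeks that carried a bacterial artificial chromosome transgene, Htr2a-Cre, and had received a virus in the CeA from which Cre switches on the red fluorescent protein mCherry (AAV-DIO-mCherry). Fasted replicates 1 and 2 came from mice of 8 weeks without food for 20 and 21 hours. With 2 mice in each pool the spread between libraries is that between pools. The fed libraries gave 36, 37 and 39 Dlk1 nuclei and the fasted libraries 53 and 66, by rising replicate number, and values listed for 5 libraries below keep that order. Their summed depth was 343307, 694254, 575907, 380305 and 1089686 UMIs, with medians of 8718.5, 17864, 14038, 6865 and 16414 UMIs per nucleus. The number of nuclei therefore did not follow the depth, and fasted replicate 1 had the shallowest nuclei.

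Dlk1 encodes a delta-like transmembrane protein of the epidermal growth factor repeat family, a non-canonical ligand of the Notch pathway, and is expressed from the paternal allele as part of an imprinted gene cluster that it shares with Rtl1 and Dio3. The medial part of the central amygdala (CeM) holds GABAergic neurons that form much of the output of the nucleus, whereas the lateral part (CeL) is known for neurons that express protein kinase C delta (Prkcd), which have been linked to the suppression of feeding. The study described its Dlk1 cluster as apparently enriched in the CeM, and used the T-type calcium channel gene Cacna1g to place other clusters there.

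As Dlk1 chose the nuclei, its level is a description only. Summed over the members of a library, Dlk1 amounted to 172, 205, 217, 195 and 221 UMIs per 1000000 UMIs of the sum (CPM). Single nuclei carried few Dlk1 molecules, with 1 UMI in 85 members, 2 in 52 and 3 or more in 94. Members with a single UMI made up 52.8% of those in fed replicate 1 and 77.4% of those in fasted replicate 1, the shallowest pair of libraries, against 13.5% in fed replicate 2, 17.9% in fed replicate 3 and 19.7% in fasted replicate 2. Just inside the bound, 76 members lay between 1 and 1.5 p10k, and the lowest member of each library had between 1.01 and 1.03 p10k. Just outside it, 115 nuclei that passed every other bound had between 0.5 and 1 p10k and 42 had less, with the highest of each library between 0.981 and 0.996. Of the 420 inhibitory nuclei with at least 1 p10k of Dlk1, Sst kept out 72, Rarb 55, Tac1 34, Pde1c 19, Prkcd 18, Vdr and Foxp2 10 each, Il1rapl2 9 and Rai14 5, counts that overlap.

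Free RNA in droplets also gives UMIs, so the share of nuclei with a Dlk1 UMI was compared with that in glial nuclei, chosen by 0 UMIs of Gad1 and Gad2 and at least 3 UMIs of glial markers, whose median depth was 2533.5 to 4547 UMIs. Inhibitory nuclei were deeper, with medians of 6974 to 17628.5 UMIs. Dlk1 was detected in 8.44, 14.7, 12.7, 7.85 and 19.1% of inhibitory nuclei and in 3.49, 1.84, 0, 2.76 and 8.61% of glial nuclei. After thinning every nucleus to 4000 UMIs, which left out 33 to 107 inhibitory and 26 to 96 glial nuclei per library, the shares were 4.54, 6.04, 5.13, 4.78 and 7.40% against 3.70, 0, 0, 2.78 and 4.40%. The values of 0, from 67 and 40 glial nuclei, allow shares of up to 4.48 and 7.5% (3 counts, counting error only). The thinned inhibitory share, as measured, was the higher in all 5 libraries. In fed replicate 3, however, the glial limit of 7.5% lay above the inhibitory share of 5.13%. In fed replicate 1 the margin was small, at 4.54 against 3.70%. A single Dlk1 UMI therefore does not by itself set a nucleus apart from this background.

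The inhibitory genes Slc32a1, Gad1 and Gad2 summed to between 385 and 471 CPM, with Gad2 giving the most UMIs, but Gad1 and Gad2 chose the nuclei and their level is no check. Slc32a1, the vesicular GABA transporter, which the rule did not use, stood at 14.6, 8.64, 13.9, 28.9 and 24.8 CPM against 8.42, 6.50, 4.78, 8.76 and 18.1 CPM in glial nuclei, and 4 pan-neuronal genes summed to between 7935 and 10983 CPM. Excitatory markers, led by Slc17a6, summed to at most 5.26 CPM, with Neurod6 at 0. Of 6 markers of interneurons of the neighbouring basolateral amygdala (BLA), Vip and Pvalb were at 0, and the sum, mostly Sox6, was 17.5, 5.76, 33.0, 36.8 and 56.0 CPM. Astrocyte markers, led by Slc1a2, summed to 154, 86.4, 127, 192 and 344 CPM, and oligodendrocyte markers, led by Mbp, to 139.8, 109, 239.6, 213 and 325 CPM. Precursor markers of the oligodendrocyte line, led by Vcan, summed to between 10.4 and 25.7 CPM, and of the endothelial and pericyte markers only Pecam1 had UMIs, while Flt1, Cldn5 and Rgs5 were at 0. Microglial markers, led by Cx3cr1, summed to 2.91, 0, 252, 5.26 and 11.9 CPM, and 144 of the 145 UMIs behind the value of fed replicate 3 lay in 1 member. The doublet caller Scrublet marked 70 of the 7161 kept nuclei (0.978%), of which 1, in fed replicate 2, was a Dlk1 nucleus, and no member's barcode was shared between libraries.

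**Figure D1:**
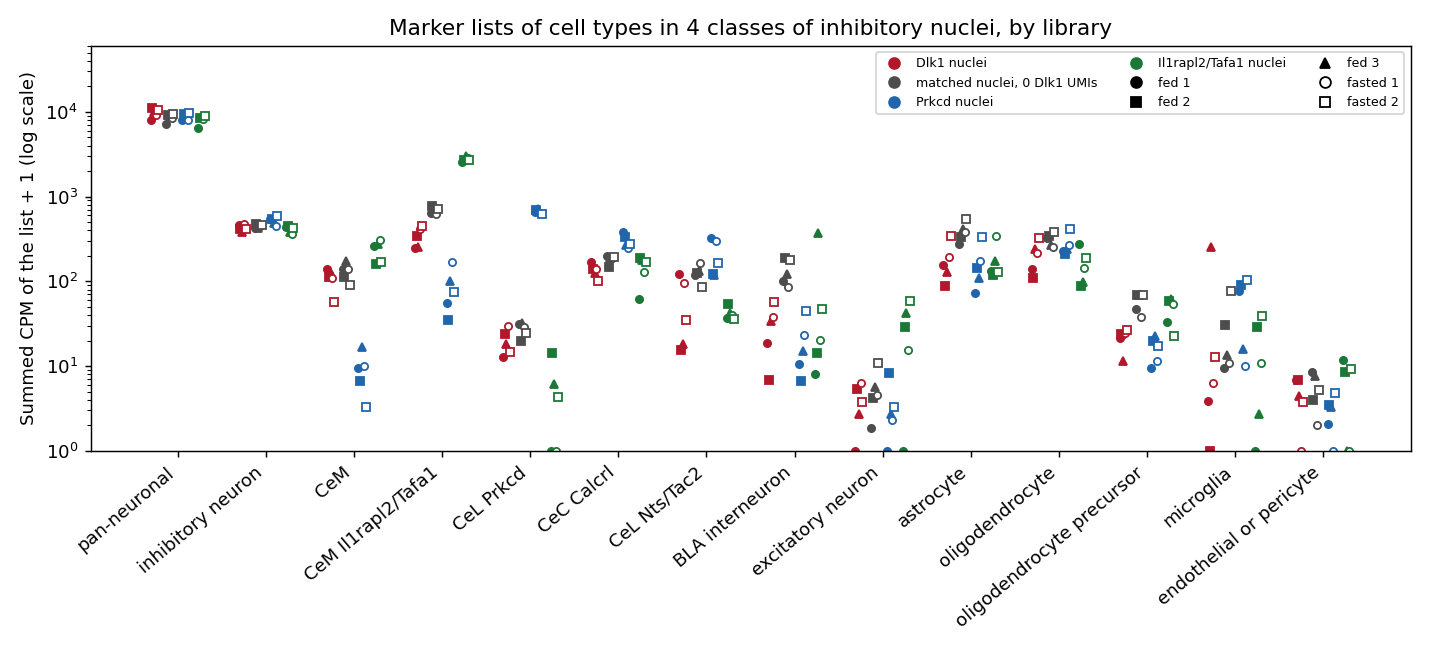
Summed level of each marker list (CPM, log scale, 1 added) in the Dlk1, matched, Prkcd and Il1rapl2/Tafa1 nuclei, of which the last 3 are described further on, 1 point per library with fed libraries filled, fasted libraries open and the marker shape giving the replicate. Inhibitory and pan-neuronal lists sit at like heights in all 4 classes, excitatory and endothelial lists lie near the bottom except for the excitatory list of the Il1rapl2/Tafa1 nuclei, which reaches 58.1, and the microglial list of fed replicate 3 stands alone at 252 among the Dlk1 nuclei.

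Il1rapl2, an interleukin 1 receptor accessory-like protein, marks another CeM type of the study. The rule caps it, so its values are a description only. Its level was 43.7, 233, 104, 99.9 and 120.2 CPM in the Dlk1 nuclei and 115, 137, 112, 82.8 and 131 CPM in the matched nuclei, which pass every other bound and have 0 Dlk1 UMIs. It was lower in the Dlk1 nuclei in 3 of 5 libraries, and since the rule caps it, no test was made. Cacna1g stood at 139.8, 112, 130.2, 108 and 56.0 CPM in the Dlk1 nuclei and at 138, 112, 173, 139.8 and 90.2 CPM in the matched nuclei, a difference that missed the threshold (log2 fold change -0.32, SE 0.11, adjusted p = 0.12, edgeR). Against nuclei rich in Prkcd, in which Cacna1g stood at 8.59, 5.68, 16, 9.08 and 2.32 CPM, it was 12.5-fold higher (log2 fold change 3.64, SE 0.21, adjusted p = 5.5e-10, edgeR). Glial nuclei had 89.9, 75.8, 117, 49.7 and 56.3 CPM of Cacna1g. That was just above the Dlk1 nuclei in fasted replicate 2 and below them in the other libraries. Position in the tissue was not measured, and the name Dlk1 nuclei is kept for that reason.

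To ask what accompanies Dlk1, the 231 Dlk1 nuclei were compared with 2080 matched nuclei of the same libraries, a mixed class divided from them by Dlk1 alone. UMIs were summed per class and library, tested with edgeR's quasi-likelihood test with library as a block, and called at an adjusted p of 0.05. Median depth differed little between the classes, at 9143, 17641, 14431.5, 7022 and 16475 UMIs in the matched nuclei. Of 11384 genes tested, 678 (5.96%) were called, 187 higher (1.64%) and 491 lower (4.31%) in the Dlk1 nuclei. The median log2 fold change of all genes was -0.01. The comparison called 309 of 10484 genes without the library block, 394 of 10811 in the fed libraries alone and 391 of 8438 after thinning. The higher genes were led by a regulator of endosomal Rab proteins (Rin3), developmental transcription regulators (Dach2, Eya4, Nr2f2), the kappa opioid receptor (Oprk1) and the imprinted neighbour of Dlk1 (Rtl1). The lower genes were led by matrix genes (Fbn2, Sulf2) and by transcription factors of other telencephalic neurons (Sox6, Satb1, Nfib).

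Tspan18, a tetraspanin, reached 69.9, 122, 88.6, 199.8 and 117 CPM in the Dlk1 nuclei and 25.2, 23.5, 23.2, 55.7 and 29.7 CPM in the matched nuclei. Every Dlk1 sum exceeded every matched sum, and the gene was 3.84-fold higher (log2 fold change 1.94, SE 0.13, adjusted p = 3.7e-08). Dach2, a dachshund family transcription cofactor, stood at 84.5, 38.9, 74.7, 78.9 and 132 CPM against 23.2, 17.9, 19.3, 10.9 and 15.5 CPM. Again the classes did not overlap, fed replicate 2 being the lowest of the Dlk1 sums, and the log2 fold change was 2.24 (SE 0.22, adjusted p = 5.6e-06). Eya4, a transcriptional coactivator with phosphatase activity, stood at 40.8, 147, 64.2, 76.3 and 62.4 CPM against 21.5, 20.1, 22.0, 15.4 and 20.2 CPM. It was highest in fed replicate 2 and rose by 1.93 on the log2 scale (SE 0.21, adjusted p = 9.6e-06). Nr2f2, the nuclear receptor COUP-TFII, stood at 46.6, 61.9, 57.3, 26.3 and 41.3 CPM against 14.9, 10.7, 22.0, 11.1 and 18.6 CPM. It was 2.97-fold higher (log2 fold change 1.57, SE 0.21, adjusted p = 6.1e-05), and its lowest Dlk1 sum, in fasted replicate 1, was still above its highest matched sum.

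Rin3 stood at 11.7, 33.1, 46.9, 15.8 and 11 CPM in the Dlk1 nuclei and at 2.11 to 6.30 CPM in the matched nuclei, and had the largest rise among the genes named (log2 fold change 2.55, SE 0.42, adjusted p = 0.00065), resting on 72 UMIs. Ankfn1, a gene of ankyrin and fibronectin repeats, stood at 958, 1888, 1426, 1352 and 1511 CPM against 578, 486, 477, 608 and 533 CPM, without overlap (2.60-fold, adjusted p = 1.6e-06). Hdac9, a class IIa histone deacetylase, stood at 964, 3140.1, 1627, 1423 and 1989 CPM against 814, 755, 701, 693 and 749.6 CPM. Its rise of 1.19 on the log2 scale (SE 0.16, adjusted p = 6.1e-05) was uneven, small in fed replicate 1 and large in fed replicate 2. The other leading genes, each higher in 5 of 5 libraries, were Cobll1, Tmprss7, Atp2c2, Syt10, Sema3e and Shroom4, with log2 fold changes of 1.63, 1.54, 1.51, 1.47, 1.31 and 1.23. They encode an actin-binding protein, a membrane serine protease, a calcium pump of the secretory pathway, a synaptotagmin, a secreted guidance cue and an actin regulator. Atp2c2 lost its call without the library block, in the fed libraries alone and after thinning, and Cobll1 and Tmprss7 lost theirs after thinning.

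**Figure D2:**
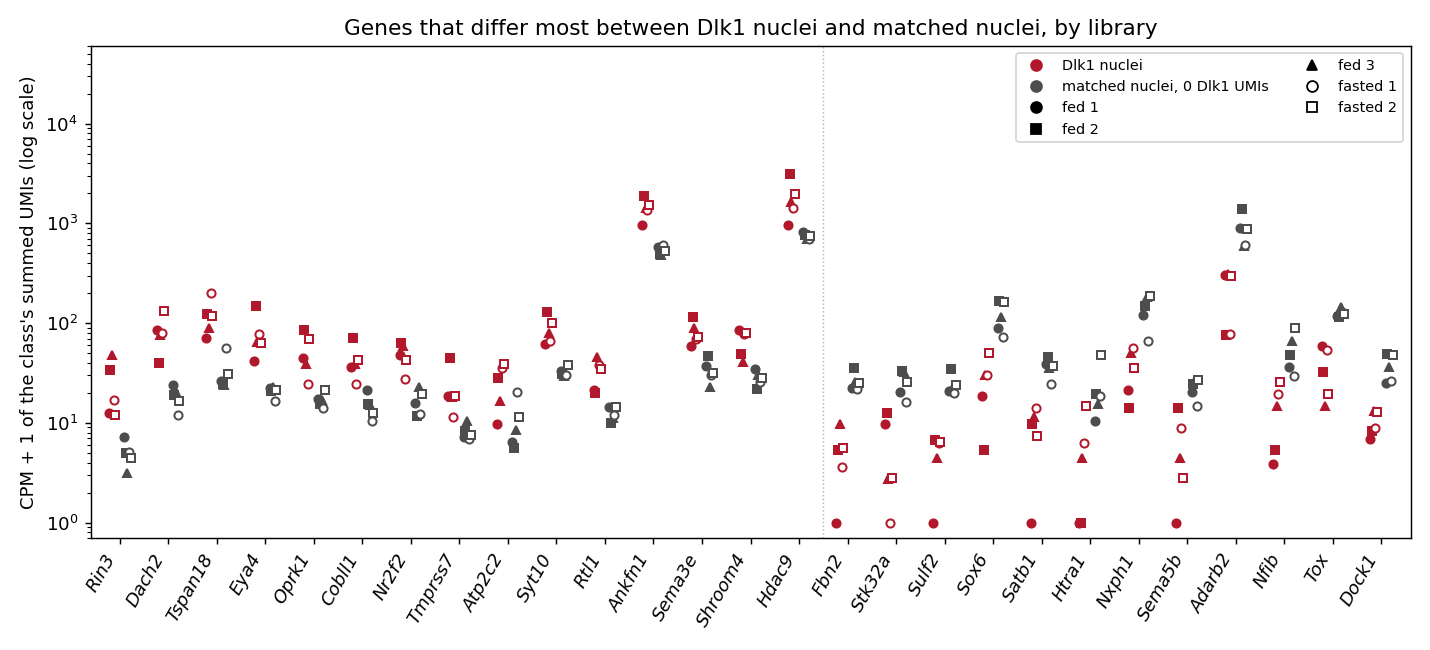
Level (CPM, log scale, 1 added) of genes leading the comparison of Dlk1 nuclei with matched nuclei, 1 point per library and class, with fed libraries filled and fasted libraries open. For Tspan18, Dach2 and Nr2f2 every Dlk1 point lies above every matched point, and for Sox6 and Satb1 every Dlk1 point lies below.

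Sox6, a transcription factor of interneurons from the medial ganglionic eminence, stood at 17.5, 4.32, 29.5, 28.9 and 49.6 CPM in the Dlk1 nuclei and at 88.5, 166, 114, 71.7 and 161 CPM in the matched nuclei. All Dlk1 sums lay below all matched sums, and Sox6 fell by 2.23 on the log2 scale (SE 0.25, adjusted p = 1.4e-05). Satb1, a chromatin organiser, stood at 0, 8.64, 10.4, 13.1 and 6.42 CPM against 38.1, 44.9, 34.2, 23.6 and 36.3 CPM and was 4.68-fold lower (adjusted p = 5.2e-05). Adarb2, a member of the RNA-editing deaminase family known from interneurons of the caudal ganglionic eminence, stood at 303, 74.9, 309, 76.3 and 294 CPM against 904, 1389, 589, 601 and 869 CPM. It was 4.23-fold lower (adjusted p = 5.9e-05), with fed replicate 2 and fasted replicate 1 well under the other Dlk1 sums. Tafa1, a secreted chemokine-like protein that marks another CeM type, was lower in every library, at 43.7, 60.5, 48.6, 68.4 and 72.5 CPM against 223, 259, 237, 179.8 and 271 CPM (log2 fold change -2.01, SE 0.12, adjusted p = 1.5e-08). Fbn2, Stk32a, Sulf2, Htra1, Nxph1, Sema5b, Nfib, Tox and Dock1 completed the list of lower genes, with log2 fold changes from -2.52 (Fbn2) to -2.03 (Dock1). Htra1 lost its call without the library block. Some glial markers were also called lower in the Dlk1 nuclei, beside 4.31% of all genes lower and 1.64% higher. They were 2 of 4 astrocyte markers (Slc1a3 and Slc1a2), 3 of 6 oligodendrocyte markers (Mbp, Mobp and St18) and all 3 precursor markers. None of 4 microglial markers was called (median log2 fold change 0.74). BLA interneuron markers, mostly Sox6, summed to 99.6, 189, 120.0, 83.8 and 177 CPM in the matched nuclei against 5.76 to 56.0 CPM in the Dlk1 nuclei. The part of these cell types in the differences was not tested.

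Among the genes around Dlk1 on chromosome 12 (GRCm39, 109418749 to 109429262, plus strand), only Rtl1 was called of 3 tested. Rtl1, a retrotransposon-derived gene at 109555627 to 109582007 on the minus strand, 126 kb past the end of Dlk1, stood at 20.4, 18.7, 45.1, 36.8 and 34.0 CPM in the Dlk1 nuclei and at 13.5, 8.95, 10.1, 10.9 and 13.4 CPM in the matched nuclei. The classes did not overlap, and the rise was 2.71-fold (log2 fold change 1.44, SE 0.23, adjusted p = 0.0004). Begain and Wdr25, on the side of Dlk1 away from Rtl1, had log2 fold changes of 0.14 (SE 0.14) and 0.12 (SE 0.17), with adjusted p of 0.73 and 0.85. Of 26 other imprinted genes tested, 6 were higher (Usp29, Zim1, Nnat, Zdbf2, Grb10 and Ddc) and 2 lower (Snrpn and Gnas), beside 1.64% of all genes higher and 4.31% lower, with a median log2 fold change of 0.07 beside -0.01 for all genes. Ddc, which encodes aromatic amino acid decarboxylase, stood at 87.4, 96.5, 78.1, 103 and 62.4 CPM in the Dlk1 nuclei and at 62.1, 48.5, 48.8, 53.9 and 40.3 CPM in the matched nuclei, and its lowest Dlk1 sum was just above its highest matched sum (1.66-fold, adjusted p = 0.00052).

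Dlk1 is placed in the Notch pathway. None of its 8 ligand and receptor genes tested was higher, and the contactins Cntn1 and Cntn6, axonal ligands of Notch, were lower, by 0.38 and 0.59 on the log2 scale. Of all genes tested 4.31% were lower and 1.64% higher. Of 12 genes of Notch processing and targets, the coactivator Maml2 alone was called, at 262, 503, 479, 337 and 431 CPM against 262, 275, 327, 274 and 262 CPM (1.42-fold, adjusted p = 0.0048). Dner, a neuronal epidermal growth factor repeat protein, had a log2 fold change of -0.06 (SE 0.10, adjusted p = 0.87).

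Of 10 neuropeptide precursors tested, Penk, the precursor of the enkephalins, was higher at 67.0, 114, 139, 171 and 159 CPM against 92.2, 56.3, 91.9, 122 and 95.6 CPM. The change was 1.46-fold (adjusted p = 0.018), fed replicate 1 went the other way, and the classes overlapped. Tac2, the precursor of neurokinin B, and Nxph1 were lower, where 1.64% of all genes were higher and 4.31% lower. Among 31 peptide and hormone receptors 5 were higher (Oprk1, Oprd1, Tacr1, Ntsr1 and Esr1) and 4 lower (Ramp1, Hcrtr2, Thrb and Vipr2), read against the same shares of all genes, with a median log2 fold change of -0.10. Oprk1 stood at 43.7, 83.5, 38.2, 23.7 and 67.9 CPM in the Dlk1 nuclei and at 16.3, 14.3, 15.8, 13.2 and 20.3 CPM in the matched nuclei, without overlap (3.22-fold, log2 fold change 1.69, SE 0.21, adjusted p = 3.1e-05). Tacr1, the substance P receptor, stood at 131, 205, 130.2, 116 and 161 CPM against 84.5, 59.7, 76.0, 104 and 71.6 CPM, also without overlap (1.95-fold, adjusted p = 0.00065). Both are receptors for peptides made by neurons of the CeA and its inputs. The neurotensin receptor Ntsr1 rose by 1.11 on the log2 scale, the delta opioid receptor Oprd1 by 0.80 and the estrogen receptor Esr1 by 0.97, Ntsr1 and Esr1 in 4 of 5 libraries each, with fed replicate 1 opposite in both.

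Of 21 receptors for monoamines and acetylcholine, 3 were higher (the serotonin receptor Htr4, the adrenergic receptor Adra1a and the histamine receptor Hrh1) and 3 lower (Htr1f, Chrm3 and Drd3), beside 1.64% of all genes higher and 4.31% lower. Adra1a stood at 195, 311, 182, 260.3 and 212 CPM against 136, 127, 118, 158 and 143 CPM, without overlap (1.67-fold, adjusted p = 0.00021), and Drd3 had 2 UMIs in all Dlk1 nuclei. The dopamine receptor Drd2 stood at 49.5, 60.5, 60.8, 52.6 and 35.8 CPM, with a log2 fold change of 0.49 that missed the threshold (SE 0.19, adjusted p = 0.16). Htr2a, which drives Cre in the mice of fed replicate 3, had a log2 fold change of 0.05 (SE 0.31), at 11.7, 7.20, 12.2, 7.89 and 10.1 CPM. Pnoc, the nociceptin precursor, stood at 8.74, 2.88, 1.74, 2.63 and 5.51 CPM, and the ghrelin receptor gene Ghsr had 0 UMIs in the Dlk1 nuclei of every library, where 3 counts would be 8.74, 4.32, 5.21, 7.89 and 2.75 CPM.

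Of 40 transcription factors tested, 18 were lower (among them Zfhx4, Isl1, Lhx6, Lhx8, Ebf1, Tshz1, Tshz2, Bcl11b, Satb1, Tcf4, Rorb, Zeb2, Onecut2, Pbx3, Nfia, Nfib and Nfix) and 2 higher (Nr2f2 and Six3), with a median log2 fold change of -0.36, beside 4.31% of all genes lower and 1.64% higher and a median of -0.01. Lhx6, like Sox6, is a marker of BLA interneurons, whose summed markers were lower in the Dlk1 nuclei in all 5 libraries, and their part in these calls was not tested. Tshz2, a teashirt zinc finger factor, stood at 399, 305, 443, 499.6 and 353 CPM against 966, 957, 917, 769.7 and 679.6 CPM, without overlap (2.19-fold lower, adjusted p = 2.9e-06). Six3, a homeobox factor of striatal-type development, stood at 29.1, 27.4, 36.5, 15.8 and 38.5 CPM against 18, 15.7, 18.7, 13.7 and 18 CPM (1.78-fold higher, adjusted p = 0.0089).

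Among 29 potassium channels, Kcnk2 was higher and 7 were lower (Kcnb2, Kcnd2, Kcnh1, Kcnh7, Kcnh8, Kcnj6 and Kcnt2), where 1.64% of all genes were higher and 4.31% lower. Of 24 glutamate receptor subunits 2 were higher, the kainate subunit Grik3 among them, and 6 lower, led in level by Grik2 at 1031, 1449, 1193, 1083 and 1622 CPM against 1869, 2832, 1903, 1704 and 2023 CPM (1.64-fold lower, adjusted p = 1.7e-05). Of 19 GABA and glycine receptor subunits 3 were lower (Gabra5, Gabrb2 and Gabrd) and none was higher. Of 33 synaptic organisers, Cdh12 was higher and 11 were lower. Cdh12, a cadherin, stood at 443, 1106, 721, 573 and 689 CPM against 368, 478, 381, 308 and 431 CPM (1.73-fold, adjusted p = 5.6e-05). None of 76 cytoplasmic ribosomal protein genes and none of 77 genes of the respiratory chain was called, with median log2 fold changes of -0.06 and -0.01. Nr4a3 was the 1 immediate-early gene called of 12, at 17.5, 20.2, 99.0, 26.3 and 22.9 CPM against 28.1, 5.77, 16.4, 29.9 and 12.1 CPM (adjusted p = 0.048). It was higher in 3 of 5 libraries, and 30 of its 57 UMIs in fed replicate 3 came from 1 nucleus.

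The nuclei were then ordered by how much Dlk1 they carried, pooled over libraries, to see how the leading genes varied with it. The genes were chosen in the same nuclei, and nuclei with more UMIs of Dlk1 are on average deeper, so these values are a description. Oprk1 had 16.6 CPM in the 2080 matched nuclei, 48.7 CPM in the 157 nuclei with Dlk1 under the bound, and 35.5, 65.2 and 61.8 CPM in members with 1, 2 and 3 or more UMIs. Eya4 had 20.1, 57.0, 60.3, 42.0 and 102 CPM over the same 5 levels, and Ankfn1 had 527, 1083, 1097, 1358 and 1676 CPM. Sox6 went from 128 CPM to 46.6, 62.0, 15.9 and 24.6 CPM. The 13 members of fasted replicate 2 with 1 UMI stood apart from those of the other libraries. They had 304 CPM of Sox6 against 21.3 to 49.1 CPM and 183 CPM of Hdac9 against 1014 to 2747 CPM. The other libraries had only 19, 5, 7 and 41 such members. The values of 49.1 and 2747 CPM come from the 5 of fed replicate 2. The pooled levels also mix libraries unequally, as 60 of the 85 members with 1 UMI came from replicates 1 of both groups and 65 of the 94 with 3 or more from replicates 2. Of the 15 leading genes, 14 were higher in pooled members with 3 or more UMIs than in those with 1, but within libraries the number was 5, 12, 12, 7 and 13. Members with 3 or more UMIs numbered 5, 25, 18, 6 and 40 by library, so several of these contrasts rest on few nuclei. Ankfn1 was lower with 3 or more UMIs than with 1 in fed replicate 1 (564 against 964 CPM), fed replicate 3 (1354 against 1413) and fasted replicate 1 (1109 against 1268), so its rise among the pooled members was not seen within most libraries. All 15 were higher in the pooled nuclei under the bound than in the matched nuclei, and 14, 15, 15, 8 and 15 were so within libraries, the 8 in fasted replicate 1 resting on 11 nuclei. For Ankfn1 the pooled nuclei under the bound lay close to the members with 1 UMI, and for Oprk1 they lay above them.

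**Figure D3:**
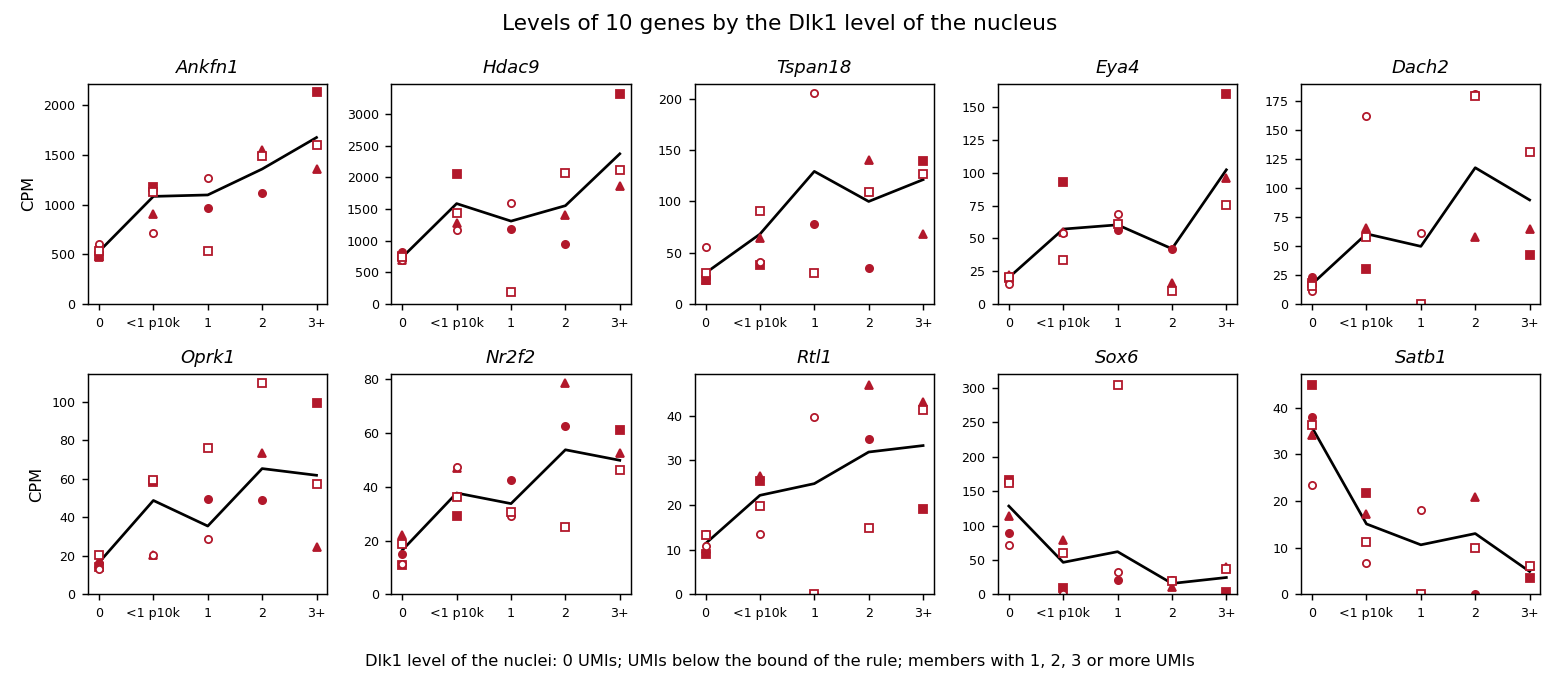
Level (CPM, linear scale) of 10 leading genes against the Dlk1 UMIs of the nuclei, from matched nuclei with 0 through nuclei under the bound to members with 1, 2 and 3 or more. The black line is the pooled level and points are libraries with at least 10 nuclei at that level, fed filled and fasted open, with the shape giving the replicate. The pooled level of Ankfn1 goes from 527 to 1676 and that of Sox6 from 128 to 24.6, over levels to which the libraries contribute unequally.

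A second comparison set the Dlk1 nuclei against 452 nuclei with Prkcd at 3 p10k or more and 0 Dlk1 UMIs that pass the other bounds. Protein kinase C delta is known from the CeL, but these bounds do not remove Calcrl neurons of the capsular part of the nucleus, which can express Prkcd as well. Calcrl was detected in 44.7, 52.3, 51.4, 35 and 34.1% of these nuclei and in 7.58 to 25% of the Dlk1 nuclei, and the part of such neurons in the comparison was not tested. Of 9136 genes tested 2119 (23.2%) were called, 1047 higher (11.5%) and 1072 lower (11.7%). The calls were 1443 of 8048 genes without the library block, 1389 of 8482 in the fed libraries alone and 1207 of 5572 after thinning. The Dlk1 nuclei had more of genes for the netrin receptor Dcc, the T-type channel Cacna1g and 10 of 15 tested receptors for monoamines and acetylcholine, and less of 10 of 16 tested genes of the glucocorticoid and FoxO response. The same Dlk1 sums enter this comparison, the one with matched nuclei and the one below, so values are given side by side and not as separate support.

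Dcc stood at 1142, 1649, 1698, 957 and 1260.0 CPM in the Dlk1 nuclei and at 74.1, 64.1, 165, 99.8 and 146 CPM in the Prkcd nuclei, far apart in every library (12.2-fold, log2 fold change 3.61, SE 0.16, adjusted p = 6.2e-11). The others named among the higher genes were Igsf21, Ildr2, Col11a1, Fxyd6, Lypd6b and Cntn2, with log2 fold changes from 3.75 (Igsf21) to 3.31 (Cntn2). Fyb2 and Gm11639, with 7 and 6 UMIs in all Dlk1 nuclei, were among the 8 genes named as lower, beside Col27a1, Sh3d21, Tnfaip8, Cdc14a, Sox13 and Papln (log2 fold change -3.51). Of the 15 receptors for monoamines and acetylcholine 10 were higher (Htr1d, Htr1f, Htr2c, Htr4, Htr7, Drd2, Adra1a, Chrm2, Chrm3 and Hrh1) and 2 lower (Htr2a and Chrm1), with a median log2 fold change of 1.93 beside -0.01 for all genes. Of the 16 genes of the glucocorticoid and FoxO response 10 were lower (Fkbp5, Sgk1, Zbtb16, Per2, Nr1d1, Dbp, Foxo1, Irs2, Sesn1 and Klf9) and none was higher, with a median of -0.93. Per2, Nr1d1 and Dbp among them are also genes of the circadian clock. Sgk1, a kinase that glucocorticoids induce, stood at 146, 101, 99.0, 97.3 and 85.3 CPM in the Dlk1 nuclei against 477, 607, 491, 415 and 456 CPM in the Prkcd nuclei (4.85-fold lower, adjusted p = 1.9e-10). Beside 11.5% of all genes higher and 11.7% lower, potassium channels (15 higher and 5 lower of 29), glutamate receptor subunits (11 and 7 of 23) and synaptic organisers (18 and 6 of 32) were called in both directions. Of 11 genes of Notch processing and targets 4 were lower (Adam17, Maml3 and Numb among them), and of 5 ligand and receptor genes Cntn6 was higher, to be read against the same shares.

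A further comparison used 137 nuclei with Il1rapl2 and Tafa1 at 3 p10k or more each and 0 Dlk1 UMIs. These genes mark another CeM type of the study. The nuclei also passed the bounds on the other genes of the rule. Those with Il1rapl2 under 15 p10k belong to the matched nuclei too, so the class is not separate from the matched class. Of 8056 genes tested 734 (9.11%) were called, 312 higher (3.87%) and 422 lower (5.24%) in the Dlk1 nuclei. Calls numbered 477 of 6864 genes without the library block, 483 of 7446 in the fed libraries alone and 315 of 3416 after thinning. Eya4 was nearly absent from the Il1rapl2/Tafa1 nuclei, at 0, 0, 6.82, 19.5 and 0 CPM (8 UMIs), where the Dlk1 nuclei had 40.8 to 147 CPM (log2 fold change 4.34, SE 0.48, adjusted p = 9.9e-06). Cobll1, Stk31, Pcsk6, Svil, Rin3, Dach2 and Ddc followed, with log2 fold changes from 4.12 (Cobll1) to 2.99 (Ddc). Meis2, a homeobox factor of striatal and amygdalar projection neurons, stood at 1078, 1098, 1051, 841 and 890.2 CPM against 352, 383, 344, 385 and 199 CPM (3.01-fold, adjusted p = 2.4e-07). Penk was 4.57-fold, Tacr1 5.39-fold and Drd2 5.09-fold higher in the Dlk1 nuclei, each in 5 of 5 libraries. Lower genes were led by Slc17a7, a vesicular glutamate transporter with 1 UMI in all Dlk1 nuclei and 66 UMIs in the Il1rapl2/Tafa1 nuclei, followed by Satb1, Gm11639, Fbn2, Col12a1, C1ql3, Reln and Sgpp2. Cacna1g was 2.19-fold lower than in the Il1rapl2/Tafa1 nuclei (adjusted p = 8.1e-05). Of 5 Notch ligand and receptor genes 3 were lower (Dlk2, Cntn1 and Cntn6), and of 9 genes of processing and targets Maml2 was higher, beside 5.24% of all genes lower and 3.87% higher. In fed replicate 3 the Il1rapl2/Tafa1 nuclei summed to 367 CPM of BLA interneuron markers against 7.10 to 46.5 CPM in the other libraries, and over all 5 their excitatory markers summed to 0, 28.2, 40.9, 14.6 and 58.1 CPM, where the Dlk1 nuclei had at most 5.26 CPM. The part of either in the comparison was not tested.

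Side by side, the 15 leading genes of the matched comparison fell into 3 patterns, the matched and Il1rapl2/Tafa1 classes having nuclei in common. Rin3, Dach2, Tspan18, Oprk1, Cobll1, Nr2f2, Rtl1, Sema3e and Shroom4 were called higher than in Prkcd nuclei and in Il1rapl2/Tafa1 nuclei as well. Eya4, Atp2c2 and Syt10 were higher than in Il1rapl2/Tafa1 nuclei and were not called against Prkcd nuclei, where their log2 fold changes were 0.23, 0.09 and -0.07. Ankfn1, Hdac9 and Tmprss7 were lower than in Prkcd nuclei, with log2 fold changes of -0.28, -0.72 and -0.69 (adjusted p = 0.04, 0.00054 and 0.034), and the first pair was called higher than in Il1rapl2/Tafa1 nuclei, where Tmprss7 was not tested. In the Prkcd nuclei Hdac9 reached 2666, 3083, 2311, 2811 and 3162 CPM. Sema3e, the guidance cue, stood at 58.3, 114, 88.6, 68.4 and 71.6 CPM in the Dlk1 nuclei against 8.59, 5.68, 16.5, 6.48 and 9.29 CPM in the Prkcd nuclei and 7.10, 13.2, 10.2, 9.74 and 18.3 CPM in the Il1rapl2/Tafa1 nuclei.

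**Figure D4:**
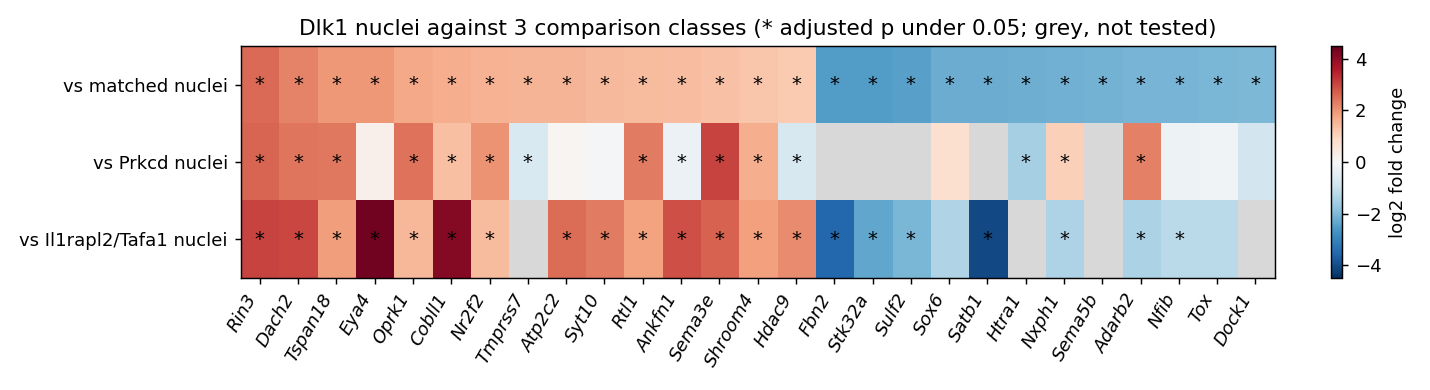
Log2 fold change of the genes leading the matched comparison in the Dlk1 nuclei against matched, Prkcd and Il1rapl2/Tafa1 nuclei, 1 row per comparison, with an asterisk where a gene was called and grey where it was not tested. Rtl1 and Sema3e keep a positive value in all 3 rows, while Ankfn1 and Hdac9 are negative against Prkcd nuclei, at -0.28 and -0.72.

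In fed replicate 3, mCherry reports Cre under the Htr2a promoter. It was detected in 17 of 39 Dlk1 nuclei (43.6%, exact 95% binomial interval 27.8 to 60.4%, counting error only), with 170 UMIs. The share was 34.6% (150 of 434) in matched nuclei, 28.8% (32 of 111) in Prkcd nuclei, 40.7% (11 of 27) in Il1rapl2/Tafa1 nuclei and 12.1% (8 of 66) in glial nuclei, whose median depth was 4482 UMIs against 14038 in the Dlk1 nuclei. No mCherry UMI was seen in the Dlk1 nuclei of the other 4 libraries, which allows shares of up to 8.33, 8.11, 5.66 and 4.55%, and none of Cre in those of any library. With 1 library there is no test between classes, and the interval of the Dlk1 nuclei holds the shares of all 3 neuronal classes it is set beside.

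Feeding state was compared over the 3 fed and 2 fasted sums of Dlk1 nuclei, with edgeR's quasi-likelihood test and no block. Of 7510 genes tested 2 (0.0266%) were called, both higher after fasting, and 343 had an unadjusted p under 0.05. Mt1, the metal-binding metallothionein 1, stood at 8.74, 1.44 and 12.2 CPM in the fed libraries and at 73.6 and 54.1 CPM in the fasted ones. In the fed sums 3 counts would be 8.74, 4.32 and 5.21 CPM. The fed values, and the fold taken from them, therefore rest on few UMIs. The groups did not overlap, and Mt1 was 8.61-fold higher (log2 fold change 3.11, SE 0.49, adjusted p = 0.033). Fkbp5, a co-chaperone of the glucocorticoid receptor, stood at 75.7, 83.5 and 39.9 CPM against 199.8 and 249 CPM, again without overlap (3.35-fold, log2 fold change 1.74, SE 0.28, adjusted p = 0.033). Both belong to the list of 13 tested genes of the glucocorticoid and FoxO response, whose median log2 fold change was 0.15 beside -0.01 for all genes. Zbtb16 of the same list stood at 166, 202 and 72.9 CPM against 344 and 251 CPM, with an adjusted p of 0.75.

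The calls of Mt1 and Fkbp5 did not outlast the loss of most single libraries. With each of the 5 libraries left out in turn Mt1 had adjusted p of 0.0724 (fed replicate 1), 0.119 (fed replicate 2), 0.147 (fed replicate 3), 0.101 (fasted replicate 1) and 0.234 (fasted replicate 2), and Fkbp5 kept its call only without fed replicate 2 (adjusted p = 0.0295). Without a fasted library the fasted group is a single sample, which is then assumed to vary as the fed ones do. The log2 fold changes stayed between 2.49 and 3.87 for Mt1 and between 1.46 and 2.05 for Fkbp5. Without the single member rich in microglial markers both had an adjusted p of 0.0542, with log2 fold changes of 3.07 and 1.79. Same-numbered libraries were taken as prepared together. With the replicate number as a block, 60 of 8400 genes (0.714%) were called, 48 higher (0.571%) and 12 lower (0.143%) after fasting. This fit left 1 residual degree of freedom, and Mt1 and Fkbp5 were among the genes called.

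In the matched nuclei, where the fasting comparison itself was not tested, the fasted values of these genes also lay above the fed ones. There Mt1 stood at 28.1, 10.1 and 9.34 CPM in the fed libraries and at 66.6 and 79.9 CPM in the fasted ones, and Fkbp5 at 90.5, 93.5 and 48.1 CPM against 193 and 196 CPM. The interaction of class and feeding called 0 of 11384 genes (0%) in edgeR's test, 475 having an unadjusted p under 0.05. The count depended on single libraries, with 30 genes called without fed replicate 2, 7 without fed replicate 1 and 4 without fasted replicate 1. For Mt1 and Fkbp5 the interaction was 0.69 (SE 0.54) and 0.44 (SE 0.21) on the log2 scale, with an adjusted p of 1 for each.

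Other gene groups gave values without calls in the unblocked test. Of 56 ribosomal protein genes tested, 31 had fasted sums above all fed sums and none below, beside 10.6% of all genes above and 7.92% below, and their median log2 fold change was 0.80. Their summed level in the Dlk1 nuclei was 1736, 1069 and 1688 CPM in the fed and 2722 and 2276 CPM in the fasted libraries. It was also higher in the fasted libraries in the other classes, with fed and fasted means of 1392 and 2549 CPM in matched, 1707 and 3018 CPM in Prkcd, 1345 and 2096 CPM in Il1rapl2/Tafa1 and 2314 and 7045 CPM in glial nuclei. Of 41 respiratory chain genes 15 had fasted sums above all fed sums, with a median of 0.28. The mitochondrial share, which marks how clean the nuclei are, moved with feeding too, at medians of 0.0979, 0.0436 and 0.0437% in the fed and 0.272 and 0.203% in the fasted Dlk1 nuclei, and astrocyte markers summed to 154, 86.4 and 127 CPM against 192 and 344 CPM. Their part in the fasting differences was not tested. None of the peptide receptor, neuropeptide, Notch, imprinted, channel or synaptic genes listed above was called. With the replicate block 6 of 68 ribosomal protein genes (Rps21, Rpl13, Rps24, Rps29, Rpl37 and Rpl35a), the respiratory chain gene Cox8a, the astrocyte genes Slc1a2 and Slc1a3, Sox6, the muscarinic receptor Chrm3 and the transcription factors Ebf1, Tcf4 and Zeb2 were called higher after fasting, beside 0.571% of all genes, and no list member was called lower.

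Among genes that missed the threshold, those with small p on the rising side included Zfp521 and Rps21, with log2 fold changes of 2.19 and 2.02 (adjusted p = 0.14 and 0.20, edgeR). On the falling side the smallest p belonged to Rasgef1b, Tmem132c, Ttc33, Ndst4 and Sntb1. Rasgef1b, a guanine nucleotide exchange factor, stood at 449, 629 and 543 CPM in the fed Dlk1 nuclei and at 266 and 291 CPM in the fasted ones, without overlap (log2 fold change -0.98, SE 0.22, adjusted p = 0.20). In the matched nuclei it stood at 329, 269 and 285 CPM against 276 and 231 CPM.

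**Figure D5:**
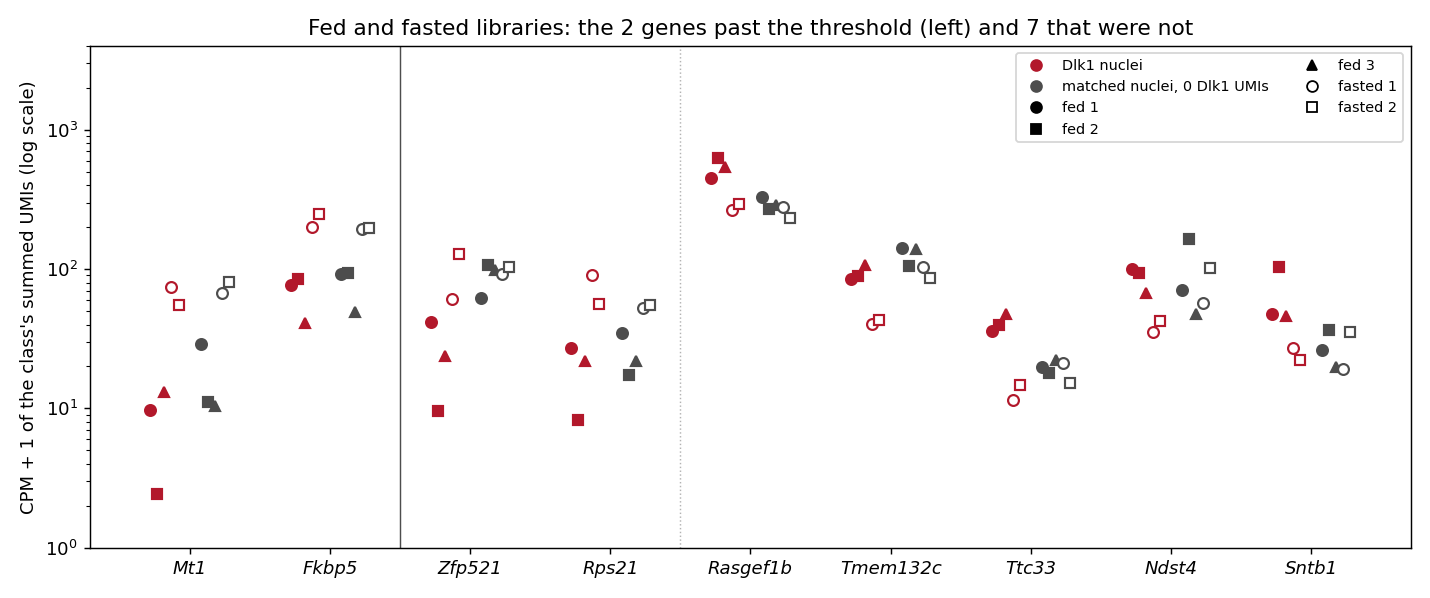
Level (CPM, log scale, 1 added) of genes with small p in the fasting comparison, in Dlk1 nuclei and in matched nuclei, 1 point per library. Mt1 and Fkbp5, the genes called, have both fasted points of the Dlk1 nuclei above all 3 fed points, and the matched nuclei show the same order.

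The Dlk1 nuclei made up 3.85, 4.29 and 2.96% of inhibitory nuclei in the fed libraries and 3.89 and 4.29% in the fasted ones. The fed mean was 3.70% (SD 0.680, n = 3) and the fasted mean 4.09%. The difference of 0.389 percentage points was smaller than the SD of the fed libraries. As the share counts nuclei that pass the rule, and so rests on the rule genes and on depth, it is a description. A two-sided exact permutation test over libraries gave p = 0.5. The smallest p that 10 splits allow is 0.1, above the threshold used for genes, so the test cannot decide whether the share differs with feeding. Libraries taken as prepared together had like shares, 3.85 and 3.89% for replicates 1 and 4.29% for each of replicates 2. Without fed replicate 3, which has no fasted partner, the difference was 0.0179 percentage points. After thinning all nuclei to 4000 UMIs the share was 3.06, 3.99, 2.15, 2.75 and 4.56%. With at least 2 Dlk1 UMIs required the share was 1.82, 3.71, 2.43, 0.880 and 3.44%.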

How the data were processed

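The deposited files are raw UMI counts per gene and nucleus of 5 droplet libraries. Per the file headers the authors made these counts with Cell Ranger 5.0.0, and per the study's methods reads of introns were included and the GRCm39 genome was extended with Cre and mCherry; the submitters' processing notes name Cell Ranger 2.1.1 and mm10 instead, and the reads were not analysed here. The members and gene lists were chosen with earlier results of these data known. Nuclei were gated as stated, and UMIs were summed per class and library (22532 genes). Sums were tested with edgeR 4.0.16 (R 4.3.3, TMM, filterByExpr, quasi-likelihood test, Benjamini-Hochberg over all genes tested, standard errors from log2 fold change and F). The genes of the rule and mitochondrial genes, and Tafa1 in the Il1rapl2/Tafa1 comparison, stayed in library sizes and out of tests. CPM values are UMIs per 1000000 of the class sum in a library. Scrublet, as run by scanpy 1.11.5, marked doublets.

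Named genes had to pass the threshold in the same direction in all 5 libraries with a mean of at least 20 CPM in the higher class, and the 15 largest rises and 12 largest falls of the matched comparison and 8 each way of the others were taken; for fasting, up to 12 called genes each way by p, or the 5 with the smallest p; and list members that were called or had the highest levels. Slc17a7, named in the Il1rapl2/Tafa1 comparison, was an exception to the shared direction. It had 0 UMIs in both classes in fed replicate 1. Cre, mCherry, Htr2a, Pnoc, Ghsr, Drd2 and markers were always named. Tshz2, Six3, Maml2, Nnat and the other list members given in full were picked from those after their values were seen, as were Meis2, Sgk1, Penk, Tacr1 and Drd2 in the other class comparisons.

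Per the study's supplement, the datasets Fed_1 and Fast_1 were prepared together, as were Fed_2 and Fast_2, while Fed_0 was a separate fed batch. The replicate numbers were taken to match these names, with fed replicate 3 as Fed_0, which the sample labels do not state. On that reading numbers pair the samples. Deviations of same-numbered libraries from their group means correlated at r = 0.149 and 0.206 over 7510 genes in the Dlk1 nuclei. In the matched nuclei these values were 0.454 and 0.640. Fed replicate 3 correlated with fasted replicate 1 at 0.0569 in the Dlk1 nuclei and 0.384 in the matched nuclei. The deviations of the fasted libraries are equal and opposite. Each fed library thus correlates with them by the same amount in opposite directions, and a positive r cannot settle the pairing. Depth limits each sum to between 343307 and 1089686 UMIs. Alternatives were DESeq2 1.42.0, a likelihood ratio test, RLE scaling, no filter, the replicate block, fed libraries alone, thinning to 4000 UMIs, doublet removal, at least 2 Dlk1 UMIs and leaving out each library. A few named genes are not reported here.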

Additional observations from a re-analysis of the deposited data

Results flagged for a closer look

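mCherry transcripts lie outside the comparisons between classes and between feeding states, and were present in 43.6% of the Dlk1 nuclei of fed replicate 3 against 0% in those of the other 4 libraries, which received no virus. Groups of 2 and 3 libraries are too small for a test of single outlying libraries.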

How the results depend on the processing

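Limits are the depth, with 36 to 66 nuclei in a sum, the 3 fed and 2 fasted libraries, and fed replicate 3 taken as its own batch. The share difference is a description and was smaller than the SD of the fed libraries. It changed sign with at least 2 Dlk1 UMIs (from 0.389 to -0.491 percentage points). No named gene changed sign under the alternatives run. Of all genes called in the matched, Prkcd and Il1rapl2/Tafa1 comparisons, 622 of 623, 1700 of 1704 and 527 of 528 that could be tested on thinning kept their sign. For fasting (2 calls), the likelihood ratio test called 24 genes, no filter 42, thinning 1, at least 2 Dlk1 UMIs 0, and leaving out the member rich in microglial markers, an alternative chosen after seeing the data, 0; leaving out single libraries gave 0 to 1, and DESeq2 2. Mt1 also lost its call on thinning (adjusted p = 0.219) and both genes lost it with at least 2 Dlk1 UMIs (0.813 for Mt1 and 0.234 for Fkbp5). With the replicate block, which pairs the preparations, fasting called 60 genes; without the library block the matched comparison called 309 in place of 678, the Prkcd comparison 1443 in place of 2119 and the Il1rapl2/Tafa1 comparison 477 in place of 734. Over the same 3 comparisons the fed libraries alone called 394, 1389 and 483, thinning 391, 1207 and 315, and DESeq2 471, 1369 and 410. Leaving out single libraries gave 498 to 639, 1721 to 1862 and 523 to 674. The interaction of class and feeding called 0 to 30 genes with single libraries left out, the most without fed replicate 2, 7 without fed replicate 1 and 4 without fasted replicate 1, and DESeq2 was not run for it. The share difference was 0.0179 to 0.686 percentage points with single libraries left out. Where a cause is not given by the setting itself, it was not tested. Of the named genes Atp2c2 lost its call in the matched comparison without the library block, in fed libraries alone and on thinning, Htra1 without the library block, Cobll1 and Tmprss7 on thinning, and Slc17a7 in the Il1rapl2/Tafa1 comparison with DESeq2; no named gene of the Prkcd comparison did where it could be tested, which was 13 of 16 on thinning. In the Il1rapl2/Tafa1 comparison 9 of 16 could be tested on thinning and 10 without the library block.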
